A study of Mus musculus with 18 samples.

Results

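RNA-seq pools of lower side population cells from the bone marrow of 12-month-old mice (Mid) were compared with those from young mice (Young), to see which transcripts had already changed in amount by mid-life. The samples were chosen by their labels alone and were 6 of the 18 of the series, namely 3 Mid and 3 Young pools. The other samples were 3 pools from old mice (Old), which shared the estimate of spread and whose values are given for reference, and 9 MeDIP libraries, which were not analysed here. Young mice were 8 to 12 weeks old, Mid mice about 12 mo and Old mice 24 mo by the labels. All were female C57BL/6 mice, and neither the labels nor the methods give a treatment or an engineered allele for these pools. The cells, referred to as SP-HSC, were sorted by the lowest Hoechst staining, and each replicate was a pool of several mice. Pools of Young mice held many more animals than pools of Mid mice, so that age and pool size cannot be told apart.

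Hematopoietic stem cells (HSC) reside in the bone marrow, renew themselves and give rise to every blood lineage. The side population is found by the efflux of the dye Hoechst through ABC transporters, chiefly Abcg2. With age the murine stem cell compartment is known to grow in number, while its output shifts away from lymphocytes and toward myeloid cells and platelets.

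The estimated counts summed to between 74819481 and 195468525 per Young pool and between 120699053 and 200461974 per Mid pool. Young pool 1 had the lowest total, came from 1 sequencing run where the other 5 pools had 2 runs each, and correlated least with the other pools (mean Pearson's r 0.946 across genes, against 0.970 to 0.980 for the 8 others). Values are given as CPM, the reads of a gene relative to its library total after TMM normalization, in the order of pools 1, 2 and 3. Differences are log2 fold changes of Mid over Young, with a standard error (SE) worked back from the test statistic. The files number their genes and name none, so that gene names were inferred from transcript length and genome order, and names with a length 3 to 40 bp off are called tentative at first mention. Of the stem cell markers fixed for a check of the label, 7 of 12 were measured. They were Mecom, Fgd5, Abcg2 and Tek and, with tentative names, Ly6a, Slamf1 and Hlf. Their summed level was 877, 667 and 692 CPM in Young and 596, 597 and 618 CPM in Mid, and none was called different. Granulocyte markers (7 of 12 measured) summed to 2140, 2420 and 2310 CPM in Young and to 1280, 2990 and 2940 CPM in Mid. B cell markers (4 of 12) summed to 25.7, 64.0 and 83.2 CPM in Young and to 10.8, 17.6 and 44.9 CPM in Mid. Macrophage, monocyte and dendritic cell markers (7 of 12) ranged from 103 to 156 CPM in Young and from 72.6 to 139 CPM in Mid, mast cell markers (6 of 8) from 27.8 to 95.3 CPM and from 17.9 to 102 CPM, and T and NK cell markers (11 of 13) from 47.5 to 97.1 CPM and from 34.4 to 50.7 CPM. Erythroid markers (3 of 8) ranged from 14.3 to 22 CPM in Young and from 3.95 to 25.1 CPM in Mid. No member of these lists was called. As 0.879% of all genes tested were called, a count of 0 in a marker list this small, here or below, is not a result about the cells. In bulk samples of this kind, fewer cells of a type and less RNA per cell cannot be told apart.

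By mid-life, 98 genes had risen and 45 had fallen at an adjusted p under 0.05 (edgeR, quasi-likelihood test, adjusted after Benjamini and Hochberg over 16267 genes), which is 0.602% and 0.277% of the genes tested, or 0.879% in either direction. The median log2 fold change of all genes was -0.02. The rises were the larger: 91 of 98 were at least 2-fold, against 30 of 45 falls. Names could be given to 55 of the genes that rose and to 31 of those that fell. Among genes without a name, uc009sql.1 fell from 9.29, 4.67 and 4.2 CPM to 0.677, 0.964 and 0.445 CPM (log2 fold change -3.11, SE 0.444, adjusted p = 0.015), and its call was lost without Mid pool 1 or Mid pool 3. In all 143 genes the pools of the 2 ages did not overlap, whereas 23.9% of all genes tested had groups that did not overlap. Most called genes were of low to moderate abundance, with an average log2 CPM under 1 in 26 of the genes that rose and in 12 of those that fell, and none above 8.10. Without Young pool 1, when every Young and Mid pool compared had 2 runs, 508 genes were called, all 143 among them, and 262 of the 508 were higher in Mid. Old pool 1, which had 1 run too, stayed in the estimate of spread of that fit. With Young and Mid pools alone 34 genes were called. Of the 36 called genes picked by the naming rule, 12 kept their call there, namely Mab21l2, Tdrd9, Gm106, Muc1, Mical2, Ripk4, Aldh1a1, Sult1a1, Sdpr, Sele, H19 and Itpripl1. Counts under the leaving out of each other pool were lower, with 63 genes without Young pool 2, 74 without Young pool 3, 43 without Mid pool 1, 51 without Mid pool 2 and 44 without Mid pool 3.

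**Figure D1:**
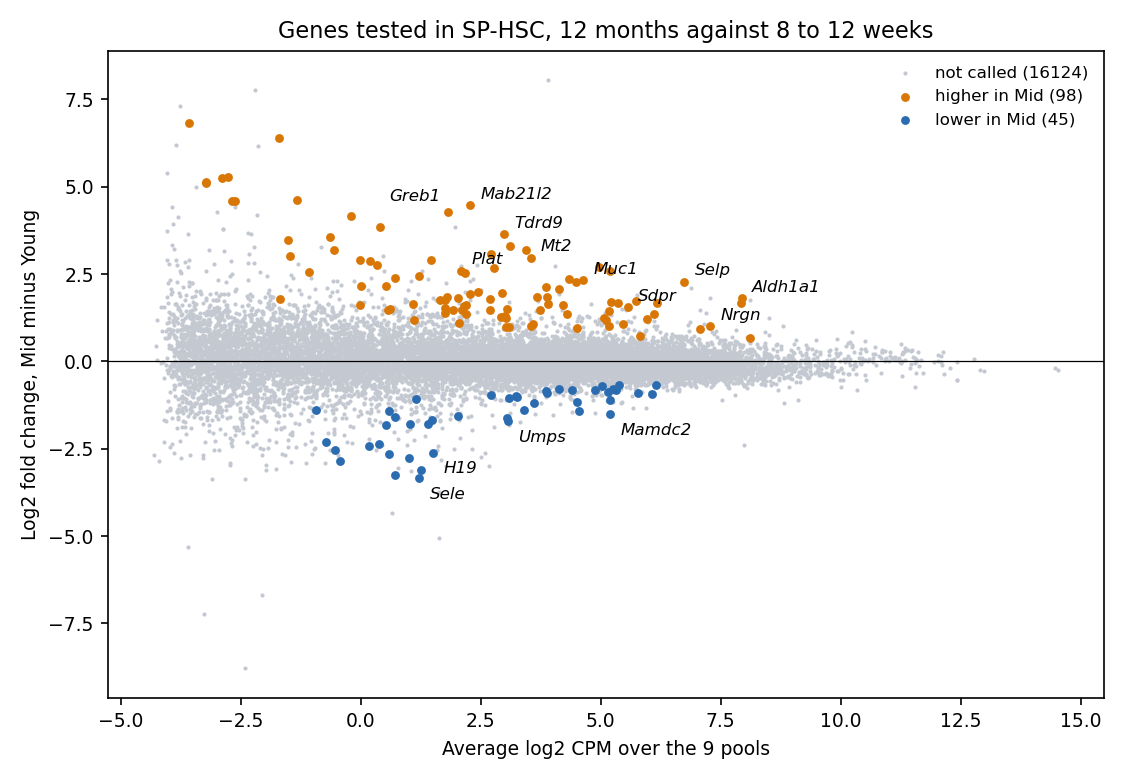
Log2 fold change of Mid over Young (vertical axis) against average log2 CPM (horizontal axis) for the 16267 genes tested. Genes called higher in Mid (98) and lower in Mid (45) are coloured, and all lie at or below an average log2 CPM of 8.10, with the largest changes at low abundance.

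Both metallothioneins measured, small cysteine-rich proteins that bind zinc and copper, rose. Mt1 (chr8:96702989-96704225, NCBIM37) stood at 2.24, 6.46 and 6.64 CPM in Young and at 21.7, 27.1 and 31.4 CPM in Mid. Mt2, its neighbour on the same strand (chr8:96696518-96697467, NCBIM37), stood at 0.442, 2.44 and 2.09 CPM in Young and at 11.7, 13.9 and 14.4 CPM in Mid. Every Mid pool lay well above every Young pool for both genes, and Young pool 1 was the lowest. The log2 fold change was 2.37 for Mt1 (SE 0.354, adjusted p = 0.0178) and 2.97 for Mt2 (SE 0.465, adjusted p = 0.0225). The call of Mt1 was lost when any 1 of the 3 Mid pools was left out (log2 fold changes 2.04 to 2.60 over all single omissions, adjusted p up to 0.0888), and that of Mt2 also without Young pool 3 (2.57 to 3.34, adjusted p up to 0.0975). As the 2 genes moved together, the 250 bases before each RefSeq start site are shown, from chr8:94178839-94179088 for Mt1 and chr8:94172368-94172617 for Mt2 in GRCm38.p6, both on the plus strand and 5′ to 3′. Capitals mark matches on either strand to TGCACNC or TGCGCNC, the core of the metal response element through which metals are known to induce metallothioneins.
Mt1: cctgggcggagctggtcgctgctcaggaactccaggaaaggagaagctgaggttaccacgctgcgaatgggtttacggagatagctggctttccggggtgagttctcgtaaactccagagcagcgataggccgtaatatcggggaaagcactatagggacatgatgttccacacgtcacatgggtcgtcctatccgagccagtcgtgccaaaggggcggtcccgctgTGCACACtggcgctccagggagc
Mt2: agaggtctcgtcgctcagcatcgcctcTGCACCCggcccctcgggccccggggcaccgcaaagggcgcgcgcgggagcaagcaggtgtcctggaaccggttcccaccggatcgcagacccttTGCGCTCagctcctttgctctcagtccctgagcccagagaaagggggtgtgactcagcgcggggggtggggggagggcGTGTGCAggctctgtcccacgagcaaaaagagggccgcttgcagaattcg
The Mt1 sequence held 1 match, to TGCACNC, from 23 to 17 bases before the start. The Mt2 sequence held 3 matches, at 223 to 217 bases (TGCACNC), at 128 to 122 bases (TGCGCNC) and, on the other strand, at 50 to 44 bases before the start (TGCACNC). Of 32851 promoters of the same length, 21.4% held at least 1 match and 1.26% at least 3. A match in these letters is a description of the sequence and not a measured site. Bases outside these windows, among them those after the start, were not searched. The counts are therefore not those of the whole promoters and do not rank the 2 genes. Positions are relative to the annotated RefSeq start, and whether transcription began there in these cells was not tested.

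The largest rises among named genes with an average log2 CPM of at least 1 were in Mab21l2, Greb1, Tdrd9 and Gm106. Mab21l2 (uc008prj.1, chr3:86349503-86352205), required in eye development, was close to absent in Young at 0.114, 0.201 and 0.228 CPM and reached 3.58, 4.68 and 4.35 CPM in Mid (log2 fold change 4.47, SE 0.302, adjusted p = 0.00123). Tdrd9 (chr12:113209770-113307065), a Tudor domain helicase that silences transposons in the male germ line, went from 0.196, 0.683 and 0.525 CPM to 6.77, 6.62 and 4.99 CPM (log2 fold change 3.64, SE 0.374, adjusted p = 0.00371). Both were low in every Young pool and measured in every Mid pool. Gm106 (chr1:15843943-15882803), a predicted gene, rose from 0.393, 1.06 and 1.04 CPM to 6.30, 9.51 and 9.64 CPM (log2 fold change 3.31, SE 0.350, adjusted p = 0.00371). These 3 genes kept their call in all 14 alternative fits tried. Greb1, an estrogen-responsive gene, stood at 0.0818, 0.458 and 0.270 CPM in Young and at 8.26, 3.44 and 5.34 CPM in Mid (log2 fold change 4.29, SE 0.643, adjusted p = 0.0181). Its Mid pools were spread more widely than those of the other 3 genes. Its log2 fold change rose to 4.89 without Young pool 2, and its call was lost without Young pool 3, Mid pool 1 or Mid pool 3 (adjusted p up to 0.085).

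The rises that followed were in genes of varied function. Muc1 (tentative name), a membrane mucin of epithelia, rose from 3.78, 3.11 and 3.98 CPM to 17.9, 15.7 and 20.8 CPM (log2 fold change 2.33, SE 0.169, adjusted p = 0.00123), with little spread within either age. Osmr, the receptor for oncostatin M, rose from 1.06, 1.20 and 0.670 CPM to 4.11, 2.99 and 4.58 CPM (log2 fold change 1.99, SE 0.256, adjusted p = 0.0092). Plat, the tissue plasminogen activator, rose from 0.343, 0.360 and 0.581 CPM to 3.09, 1.87 and 2.91 CPM (log2 fold change 2.60, SE 0.287, adjusted p = 0.00474). Muc1, Osmr and Plat kept their call whichever pool was left out, but Osmr and Plat lost it with Young and Mid pools alone (adjusted p = 0.0734 and 0.05, the latter just above the threshold before rounding). Ripk4 (tentative name), a kinase of epidermal differentiation, kept its call in all 14 alternative fits, at 2.40, 3.64 and 3.57 CPM in Young and 13.1, 9.87 and 11.5 CPM in Mid (log2 fold change 1.83, SE 0.207, adjusted p = 0.00526). The calls of Lrrn1, Robo3 and Mical2 were lost when single pools were left out. Lrrn1, a leucine-rich repeat protein of neurons, rose from 0.393, 1.27 and 1.25 CPM to 5.76, 6.46 and 4.99 CPM (log2 fold change 2.53, SE 0.410, adjusted p = 0.0263). Robo3 (tentative name), an axon guidance receptor, rose from 1.28, 1.99 and 1.53 CPM to 7.18, 5.55 and 4.11 CPM (log2 fold change 1.81, SE 0.327, adjusted p = 0.0425). Both lost their call without any 1 pool except Young pool 1, with adjusted p up to 0.122 for Lrrn1 and 0.166 for Robo3. Mical2 (tentative name), which oxidizes actin, rose from 3.66, 5.13 and 5.2 CPM to 30.2, 17.7 and 20.2 CPM (log2 fold change 2.28, SE 0.327, adjusted p = 0.0151), and lost its call without Young pool 2, Young pool 3, Mid pool 1 or Mid pool 3 (adjusted p up to 0.0609).

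**Figure D2:**
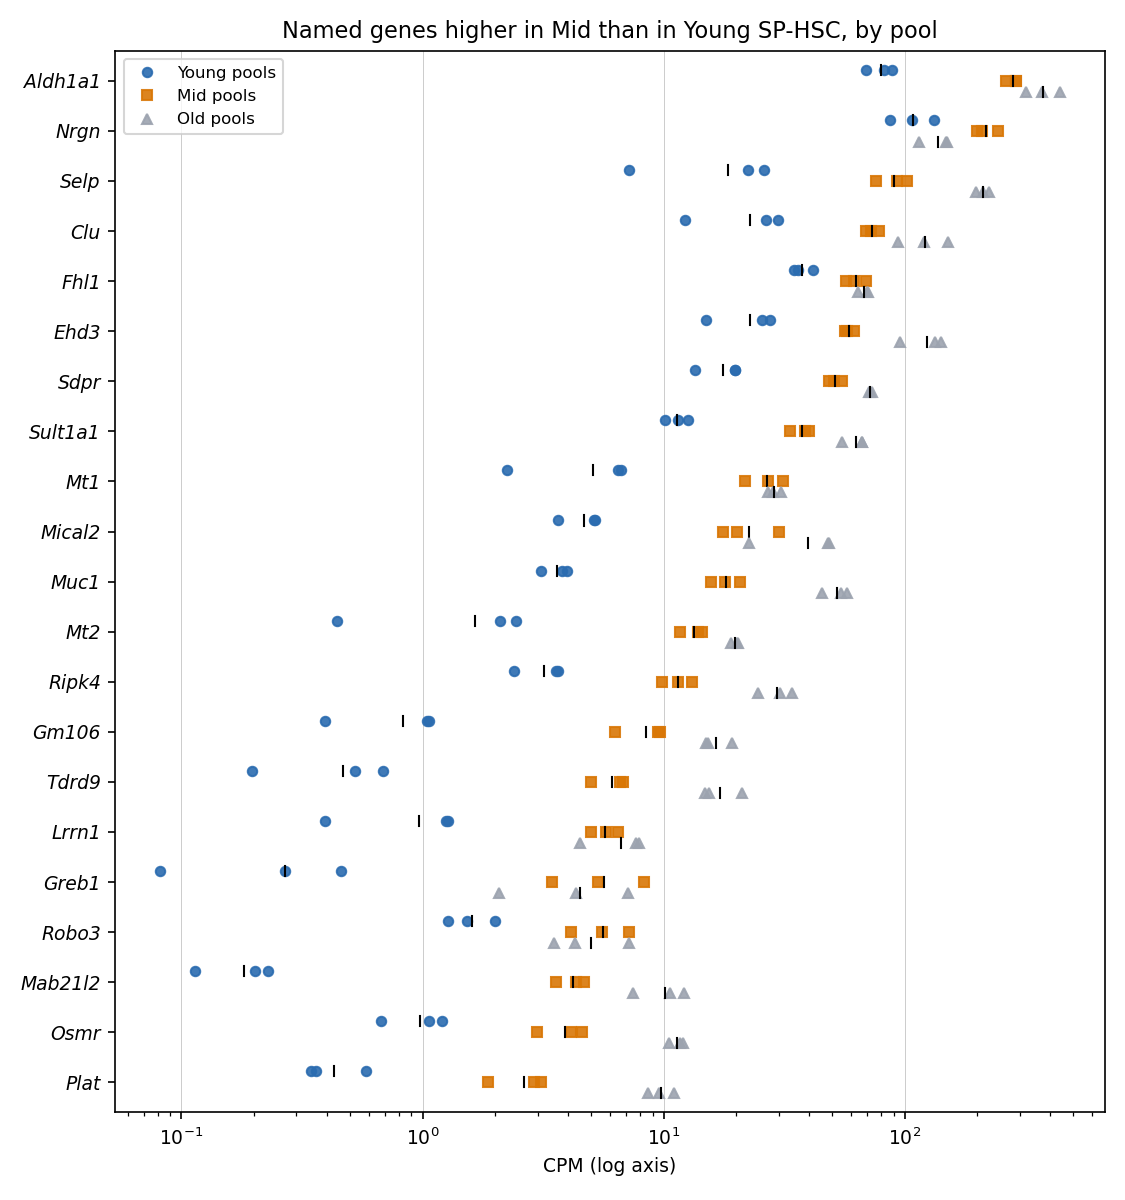
CPM of named genes that rose, one point for each Young, Mid and Old pool, on a logarithmic axis, with a tick at each group's mean. The 3 Mid pools lie above the 3 Young pools for each gene shown.

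Genes that earlier work on aged HSC describes as higher were among those that rose at mid-life. Of 42 genes of such a list, 22 were measured and 9 rose, namely Selp, Sdpr, Aldh1a1, Sult1a1, Clu, Mt1, Osmr, Ehd3 and Fhl1, against 0.602% of all genes. None fell, 20 of the 22 had a fold change above 0, and the median log2 fold change was 0.75 against -0.02 for all genes. The list was drawn up with earlier results of these data known and is no independent evidence. Selp, P-selectin, the adhesion receptor of platelets and endothelium, rose from 7.18, 26.2 and 22.3 CPM to 92.7, 76.2 and 102 CPM (log2 fold change 2.28, SE 0.393, adjusted p = 0.0367). Aldh1a1 (tentative name), which makes retinoic acid and oxidizes aldehydes, was the most abundant, at 68.8, 82.2 and 88.4 CPM in Young and 263, 289 and 290 CPM in Mid (log2 fold change 1.82, SE 0.165, adjusted p = 0.00258). Its spread within each age was small beside the difference. Sult1a1, a sulfotransferase of phenols, rose from 12.6, 10.1 and 11.5 CPM to 33.3, 38.7 and 40 CPM (log2 fold change 1.71, SE 0.147, adjusted p = 0.00213). Sdpr, which encodes the caveolar coat protein cavin 2, had a log2 fold change of 1.55 (SE 0.160, adjusted p = 0.00371). Aldh1a1, Sult1a1 and Sdpr kept their call in all 14 alternative fits. Clu (tentative name), the secreted chaperone clusterin, rose from 12.3, 26.6 and 29.8 CPM to 69.2, 78.0 and 72.8 CPM (log2 fold change 1.68, SE 0.305, adjusted p = 0.0426), and Ehd3, of endosomal traffic, from 15, 25.6 and 27.7 CPM to 56.4, 61.8 and 57.9 CPM (1.36, SE 0.238, adjusted p = 0.0384). Fhl1, a LIM domain protein, rose the least, from 34.8, 36.2 and 41.7 CPM to 61.8, 69.1 and 56.9 CPM (0.74, SE 0.131, adjusted p = 0.0401). The calls of Clu, Ehd3 and Fhl1 were lost without any 1 pool except Young pool 1, with adjusted p up to 0.174, 0.163 and 0.188, and that of Selp without Young pool 3 or any Mid pool (adjusted p up to 0.133). Among members not called, Wwtr1 (tentative name), a cofactor of TEAD transcription factors, stood at 8.83, 33.2 and 38.5 CPM in Young and at 109, 118 and 119 CPM in Mid (log2 fold change 2.10, adjusted p = 0.0608).

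Platelet and megakaryocyte genes gave 2 rises among 21 of 24 measured, Selp and Nrgn, with none lower and a median log2 fold change of 0.20, where 0.602% of all genes rose. Nrgn, the calmodulin-binding protein neurogranin, which platelets also contain, rose from 87.0, 107 and 132 CPM to 199, 245 and 209 CPM (log2 fold change 1.0, SE 0.188, adjusted p = 0.0484), and its call was lost without any 1 pool except Young pool 1 (adjusted p up to 0.212). The call of Nrgn was also lost with DESeq2 size factors, with no filter on counts and with Young and Mid pools alone. It was kept in 6 of the 14 alternative fits. Megakaryocyte markers such as Pf4, Gp9 and Itga2b (8 of 8 measured) summed to 84.3, 113 and 79.7 CPM in Young and to 114, 158 and 120 CPM in Mid, with no member called, and their part in the rises of Selp and Nrgn was not tested. In the list of detoxification and ABC transport, 4 of the 14 measured (of 22) rose, namely Mt1, Mt2, Aldh1a1 and Sult1a1, and none fell, with a median of 0.08, against the same 0.602% of all genes. The transporters themselves were not called: Abcg2 had a log2 fold change of -0.14, Abcb1a of 0.04 and Abcb1b of 0.13. Sdpr alone was called among the 4 measured of 8 caveolar genes, where Ptrf and Prkcdbp, both with tentative names, and Pacsin2 had values of 0.09, 0.03 and -0.04. Of 17 measured genes of the adhesion list (of 28), Selp was the one called, and the median was -0.04. Sele and Itga9, described below, were not on that list. With 1 call each, beside 0.602% of all genes higher, the caveolar and adhesion counts say nothing of the lists as a whole. All lists of this paragraph were chosen with earlier results of these data known, so their counts are no independent evidence. Selp, Sdpr, Mt1, Aldh1a1 and Sult1a1 were already counted in the list of genes higher in aged HSC.

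The largest fall among named genes with an average log2 CPM of at least 1 was in Sele. Sele, E-selectin, an adhesion receptor of activated endothelium, fell from 6.00, 8.52 and 3.16 CPM to 0.747, 0.587 and 0.420 CPM (log2 fold change -3.33, SE 0.592, adjusted p = 0.0402). It lies on chromosome 1 as Selp does, with Sele at chr1:165978365-165987808 and Selp at chr1:166045395-166080157 (NCBIM37), and the 2 genes changed in opposite directions. Nid1, a basement membrane protein, fell from 4.06, 5.09 and 3.44 CPM to 1.59, 1.15 and 0.907 CPM (log2 fold change -1.79, SE 0.275, adjusted p = 0.021). The call of Sele was lost without Young pool 2 or any Mid pool (log2 fold changes -3.63 to -2.96, adjusted p up to 0.188), and that of Nid1 without Young pool 2, Mid pool 2 or Mid pool 3 (adjusted p up to 0.133). Of the 12 falls with an average log2 CPM under 1, Ctgf, Postn, Kcnj8 and Pparg are given here, singled out after their values were seen. Ctgf, a secreted matrix-associated factor, stood at 6.18, 4.88 and 3.75 CPM in Young and 0.867, 0.729 and 0.571 CPM in Mid (log2 fold change -2.77, adjusted p = 0.0102). Postn, the matrix protein periostin, had a log2 fold change of -1.82 (adjusted p = 0.0384), Kcnj8, a potassium channel of vascular muscle and pericytes, of -2.65 (adjusted p = 0.0151) and Pparg, the regulator of fat cell differentiation, of -2.41 (adjusted p = 0.0289). Of the fixed markers of endothelium and stroma, 7 of 12 were measured and 0 were called, with 4 below and 3 above 0 and a median of -0.46. Groups did not overlap in 6 of the 7, against 23.9% of all genes. Cdh5, VE-cadherin, stood at 5.66, 11.5 and 5.92 CPM in Young and 1.21, 1.43 and 0.638 CPM in Mid (log2 fold change -2.82, adjusted p = 0.0981), and Sparc, a matrix protein, at 17.3, 14.3 and 9.73 CPM and 2.40, 2.70 and 1.01 CPM (-2.75, adjusted p = 0.0542). Plvap, of endothelial fenestrae, had a log2 fold change of -1.96, Pecam1 of -0.46, Cxcl12 of 0.40, Col1a2 of 1.21 and Lepr (tentative name) of 1.49. The summed level of these markers was 87.8, 106 and 86.2 CPM in Young and 100, 80.4 and 72.6 CPM in Mid, none of the 7 was at 0, and their part in the falls of Sele, Nid1, Ctgf, Postn, Kcnj8 and Pparg was not tested.

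H19 (tentative name, with a length 31 bp off), the imprinted long non-coding RNA that restrains growth and is linked to stem cell quiescence, fell from 6.43, 5.95 and 7.60 CPM to 1.13, 1.25 and 0.890 CPM (log2 fold change -2.61, SE 0.331, adjusted p = 0.00862). The 3 Young pools were close to each other and the Mid pools too, yet the call was lost without Mid pool 1 or Mid pool 3 (adjusted p up to 0.0584). Umps, the enzyme that completes de novo synthesis of uridine monophosphate, fell from 22.9, 15.7 and 13.1 CPM to 5.02, 6.33 and 4.36 CPM (log2 fold change -1.72, SE 0.239, adjusted p = 0.0131), and likewise lost its call without Mid pool 1 or Mid pool 3 (adjusted p up to 0.0832). Socs2, a feedback inhibitor of cytokine and growth hormone signalling, fell from 55.4, 27.1 and 30.7 CPM to 13.4, 14.0 and 14.6 CPM (log2 fold change -1.43, SE 0.252, adjusted p = 0.0391). Mamdc2, a matrix protein, fell from 98.2, 43.4 and 47.5 CPM to 20.4, 22 and 23.7 CPM (log2 fold change -1.51, SE 0.284, adjusted p = 0.0469). For both Socs2 and Mamdc2, Young pool 1 was the highest, and the log2 fold changes without it were -1.04 and -1.03, with the call kept. They lost their call without Young pool 3 or any Mid pool, with adjusted p up to 0.176 and 0.211.

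Tnfrsf13c, the receptor for the B cell survival factor BAFF, fell from 31.6, 45.2 and 49.2 CPM to 17.6, 19.5 and 19.4 CPM (log2 fold change -1.16, SE 0.192, adjusted p = 0.0298). B cell markers summed to between 25.7 and 83.2 CPM in Young and between 10.8 and 44.9 CPM in Mid, with none of the 4 measured called, all 4 below 0 and a median log2 fold change of -1.38, and their part in this fall was not tested. Itga9 (tentative name), the integrin alpha 9 chain, fell from 15, 16.6 and 15.6 CPM to 8.23, 8.13 and 7.11 CPM (log2 fold change -1.01, SE 0.130, adjusted p = 0.00937), and its call was lost without any 1 of the Mid pools (adjusted p up to 0.0741). Cyp4b1, a cytochrome P450, fell from 6.77, 4.89 and 3.70 CPM to 1.5, 1.86 and 1.43 CPM (log2 fold change -1.68, SE 0.263, adjusted p = 0.0225), and its call was lost without Young pool 2 or any Mid pool (adjusted p up to 0.128). The other 6 of the 15 largest falls lay between log2 fold changes of -0.92 and -1.80, in Lrrn3, Itpripl1, Shisa2, Lgmn, Layn and Myadm, where Lrrn3, Itpripl1, Lgmn and Myadm are tentative names. Of these, Layn encodes layilin, a hyaluronan receptor, and fell from 11.2, 9.69 and 9.50 CPM to 5.26, 4.99 and 5.23 CPM (log2 fold change -0.97). Lgmn encodes the lysosomal protease legumain and fell from 11.9, 12.5 and 12.4 CPM to 4.55, 5.74 and 7.38 CPM (log2 fold change -1.06). Tnfrsf13c and these 6 genes lost their call without any 1 pool except Young pool 1, with adjusted p up to 0.156 for Tnfrsf13c and 0.151 to 0.21 for the others.

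**Figure D3:**
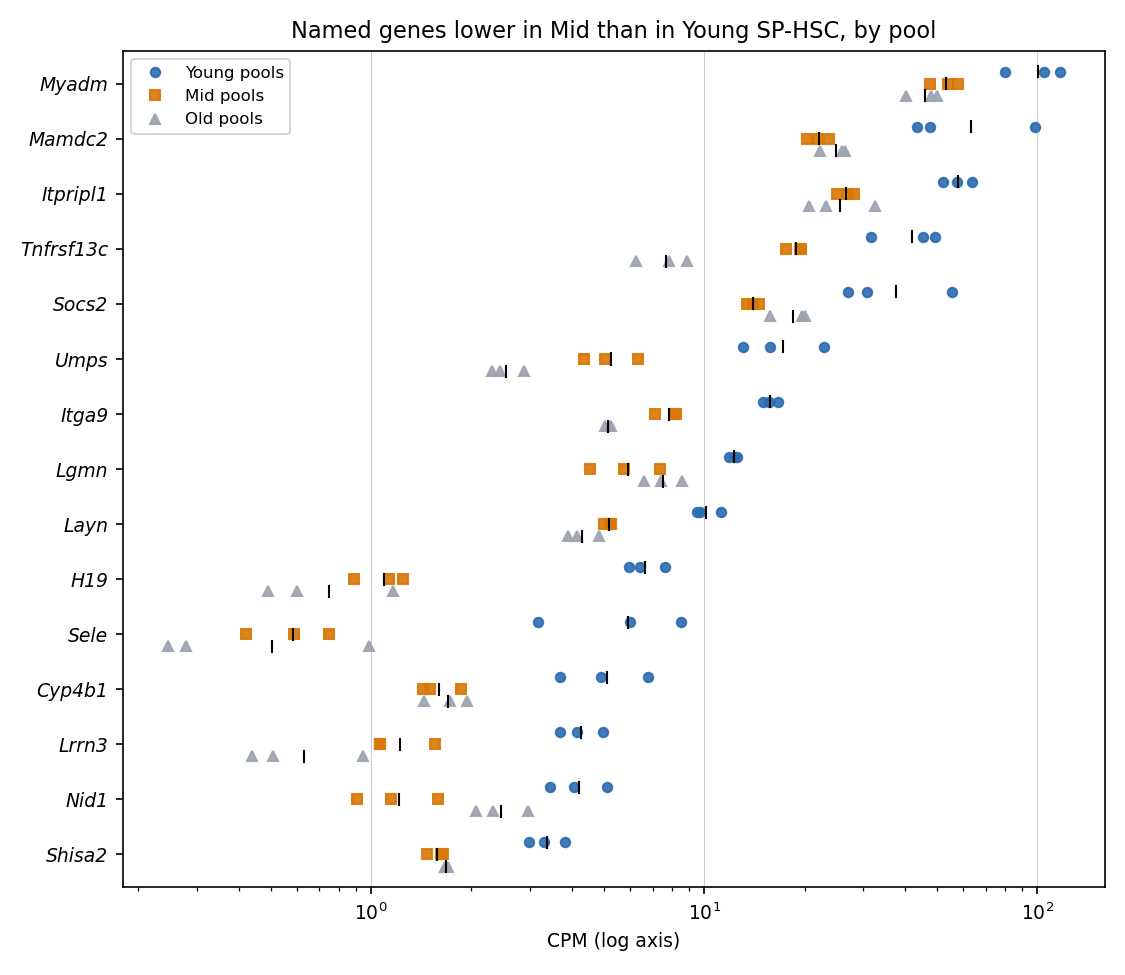
CPM of named genes that fell, one point for each Young, Mid and Old pool, on a logarithmic axis, with a tick at each group's mean. The 3 Mid pools lie below the 3 Young pools for each gene shown, and Young pool 1 is the highest for Socs2 and Mamdc2.

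Genes of stem cell identity were not called at mid-life: 0 of the 22 measured of 30, with a median log2 fold change of -0.15 and 9 above and 13 below 0. As 0.879% of all genes were called, a count of 0 in a list of this size is not a result about the list, and the same holds for the lists that follow. In this list Gata2, a transcription factor of stem cells, stood at 252, 374 and 385 CPM in Young and 471, 430 and 394 CPM in Mid, and Eng, endoglin, at 205, 424 and 462 CPM and 447, 396 and 364 CPM, neither passing the test (adjusted p = 0.48 and 0.836). Closest to the threshold was Gfi1, a repressor that restrains stem cell proliferation, at 19.4, 11.5 and 12.3 CPM in Young and 6.54, 6.72 and 7.44 CPM in Mid (log2 fold change -1.06, adjusted p = 0.0605). Of the lymphoid priming genes 13 of 23 were measured, and 0 were called, with a median of -0.90 and a value below 0 in all 13. Flt3, the cytokine receptor of early lymphoid progenitors, came nearest, at 138, 83.5 and 65.2 CPM in Young and 34.5, 45.4 and 33.5 CPM in Mid (log2 fold change -1.34, adjusted p = 0.0608). Il7r, the receptor for interleukin 7, had values of 5.32, 10.5 and 12.2 CPM and 1.22, 2.08 and 6.43 CPM (log2 fold change -1.53, adjusted p = 0.337), with overlapping groups. Ikzf1, the lymphoid regulator Ikaros, had a log2 fold change of -0.46 (adjusted p = 0.196). Cd79a, Cd79b, Pax5, Ebf1 and Ighm, measured or not, were on both the lymphoid priming list and the list of B cell markers. The values of these lists are therefore not separate, and the part of B cells in the lymphoid priming values was not tested.

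The other lists held no called gene either. Myeloid genes (14 of 20 measured) had a median of 0.19, with S100a8 at -0.10 and Camp, both of neutrophil granules, at 0.45. Erythroid genes (8 of 16) had a median of -0.03, with Car2 at -0.13. Cell cycle genes (10 of 28) had a median of -0.32 and their inhibitors (7 of 13) of -0.11, where Mcm6, of the replicative helicase, had -0.28 and Trp53 -0.15. Medians were 0.05 for polycomb genes (16 of 24), 0.03 for DNA methylation genes (12 of 17), -0.42 for interferon response genes (12 of 23), 0.25 for immediate early genes (12 of 20), 0.27 for antigen presentation (5 of 12), -0.20 for chaperones (7 of 14), -0.10 for TGF-beta and BMP genes (10 of 24) and -0.22 for control genes (4 of 10). In these lists the abundant examples were Irf9 at -0.50, Nr4a1 at 0.34, H2-K1 at 0.38, Hsp90aa1 at -0.45 and Gapdh (tentative name) at -0.08, none of which passed the test in edgeR. H2-K1, a class I antigen-presenting molecule, passed it with DESeq2 (0.38, adjusted p = 0.00427).

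**Figure D4:**
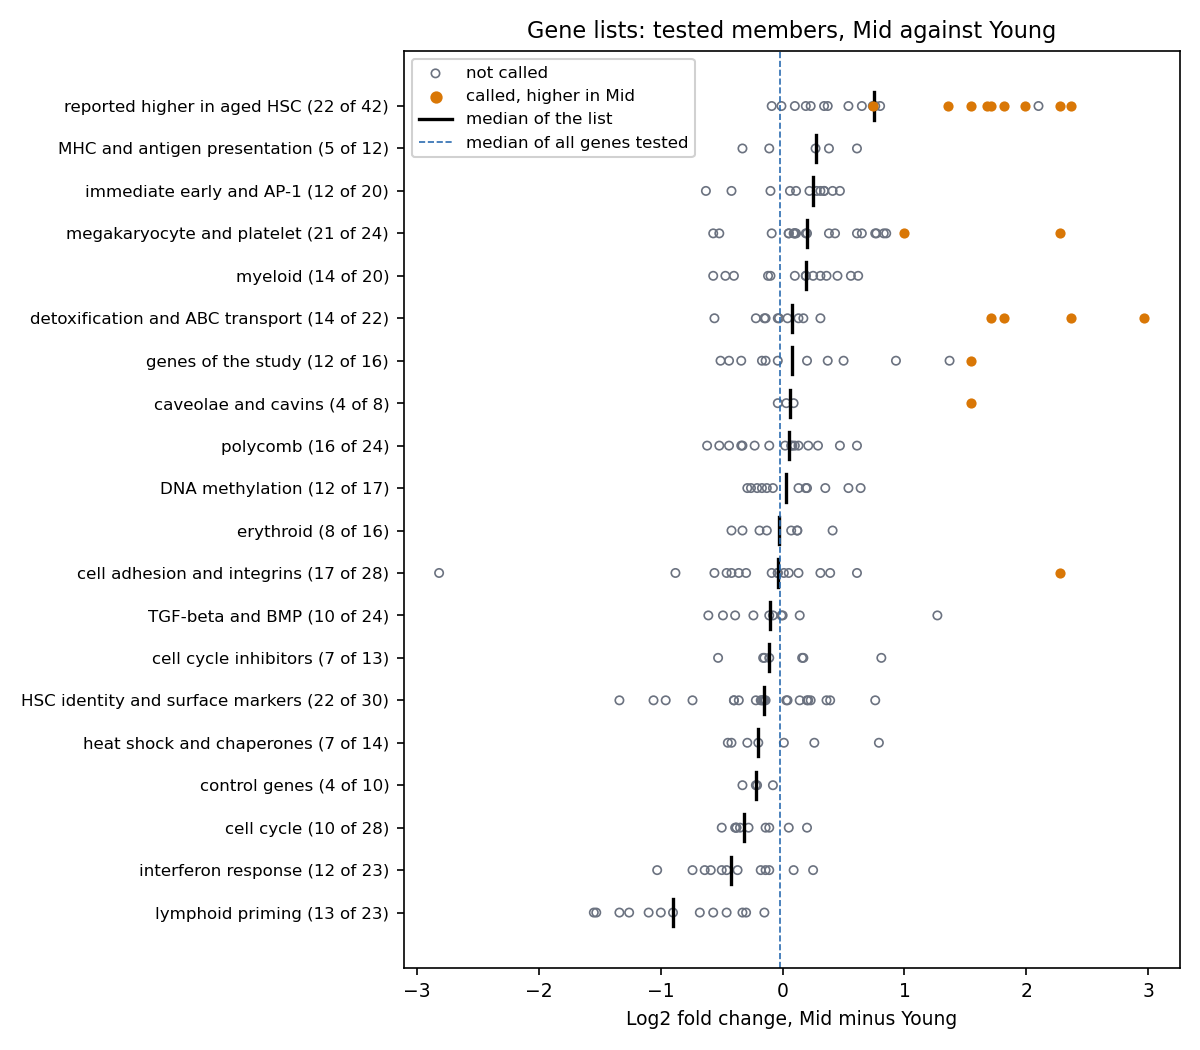
Log2 fold change of Mid over Young for the measured members of each gene list, one point per gene, with called genes coloured and a bar at each list's median. A dashed line marks the median of all genes tested (-0.02). Called genes stand at the right in 6 of the lists, and all 13 lymphoid priming genes lie below 0 without being called.

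Of the 16 genes that the study itself took up, 12 were measured and Sdpr was the one called. Kiss1r, the kisspeptin receptor, stood at 0.180, 1.43 and 1.18 CPM in Young and at 2.90, 2.36 and 2.12 CPM in Mid (log2 fold change 1.37, adjusted p = 0.284), and Hsf4, a heat shock factor, at 0.409, 1.24 and 1.13 CPM and 2.15, 1.67 and 1.57 CPM (0.93, adjusted p = 0.308). Their groups did not overlap, and in both Young pool 1 was the lowest. Values for Npas3, Nav2 and Dnmt3a (tentative name) were 0.50, 0.37 and 0.20, and for Cyfip2 and Dnmt1, both tentative names, -0.04 and -0.17. Ezh2, the methyltransferase of polycomb repressive complex 2, stood at 39.1, 35.5 and 36.7 CPM in Young and at 23.9, 27.6 and 30.5 CPM in Mid (log2 fold change -0.44, adjusted p = 0.197), its partner Suz12 had -0.34 and Trim37, a ubiquitin ligase, -0.51 (adjusted p = 0.193).

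Transcripts were tested apart from genes, as a gene's total can hide a change in 1 of its transcripts. Of 33206 transcripts, 31 were called, which is 0.0934%, with 29 higher and 2 lower in Mid, and the split of reads among transcripts of a gene is an estimate. Called transcripts belonged to a called gene in 23 cases, among them those of Mab21l2, Gm106, Muc1, Selp, Aldh1a1, Sdpr and Osmr. In Osmr the transcript uc007vdt.2 went from 0.0987, 0.234 and 0.392 CPM to 3.90, 2.79 and 4.35 CPM (log2 fold change 3.90, SE 0.482, adjusted p = 0.0465), a larger change than the 1.99 of the gene. Another, uc011zrc.1, was listed at 0 in all 3 Mid pools and at 0.971, 0.846 and 0.287 CPM in Young (adjusted p = 0.461). The other 8 called transcripts belonged to genes that were not called. One was of Vwf, von Willebrand factor, the carrier of platelet adhesion that marks platelet-biased stem cells. Its transcript uc012esw.1 rose from 20.8, 18.2 and 30.9 CPM to 95.7, 111 and 103 CPM (log2 fold change 2.15, SE 0.228, adjusted p = 0.0369), with no overlap between ages. The most abundant, uc009dus.1, stood at 61.8, 222 and 212 CPM in Young and 188, 217 and 230 CPM in Mid (log2 fold change 0.36, adjusted p = 0.859). The gene as a whole stood at 83.6, 244 and 243 CPM and 296, 333 and 340 CPM (log2 fold change 0.76, adjusted p = 0.407), with Young pool 1 apart from the others. Wwp2, a ubiquitin ligase, had a transcript (uc009nhx.1) that rose from 1.74, 0.958 and 1.74 CPM to 10.5, 12.8 and 11.1 CPM (log2 fold change 2.95, SE 0.293, adjusted p = 0.0299), while its main transcript uc009nhv.1 had -0.18. In Ubap2l, a protein of stress granules, uc008qan.2 rose from 2.24, 1.80 and 1.34 CPM to 7.42, 13.6 and 11 CPM (log2 fold change 2.58, adjusted p = 0.0465), and in Atg2b, of autophagosome formation, uc007oyo.1 from 5.71, 6.51 and 5.74 CPM to 17.5, 17.1 and 15 CPM (1.46, adjusted p = 0.0465). Another Ubap2l transcript, uc008qaq.2, stood at 0.625, 32.1 and 28.0 CPM in Young and at 0, 0.0359 and 0 CPM in Mid. It was not called (adjusted p = 0.131), and Ubap2l as a whole had a log2 fold change of 0.04. In Old, uc008qan.2 was at 1.62, 2.11 and 1.83 CPM. The called falls were in Rnf220, a ubiquitin ligase, where uc008uip.1 went from 26.1, 23.8 and 23.2 CPM to 7.45, 7.83 and 7.78 CPM (log2 fold change -1.66, SE 0.145, adjusted p = 0.026), and in Ccdc45, where uc011ygp.1 was listed at 0 in all Mid pools and at 0.609, 0.514 and 0.708 CPM in Young. Transcript calls were fragile: 85 were made without Young pool 1, 3 without Young pool 2, 1 without Mid pool 1, and 0 without Young pool 3, Mid pool 2 or Mid pool 3, in edgeR, where 3138, 2167 and 2485 transcripts had an unadjusted p under 0.05. Of the 31 called transcripts, 29 were among the 85. The calls made without Young pool 2 or Mid pool 1 held 0 of the 31, so none of the 31 outlasted the omission of any pool but Young pool 1.

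**Figure D5:**
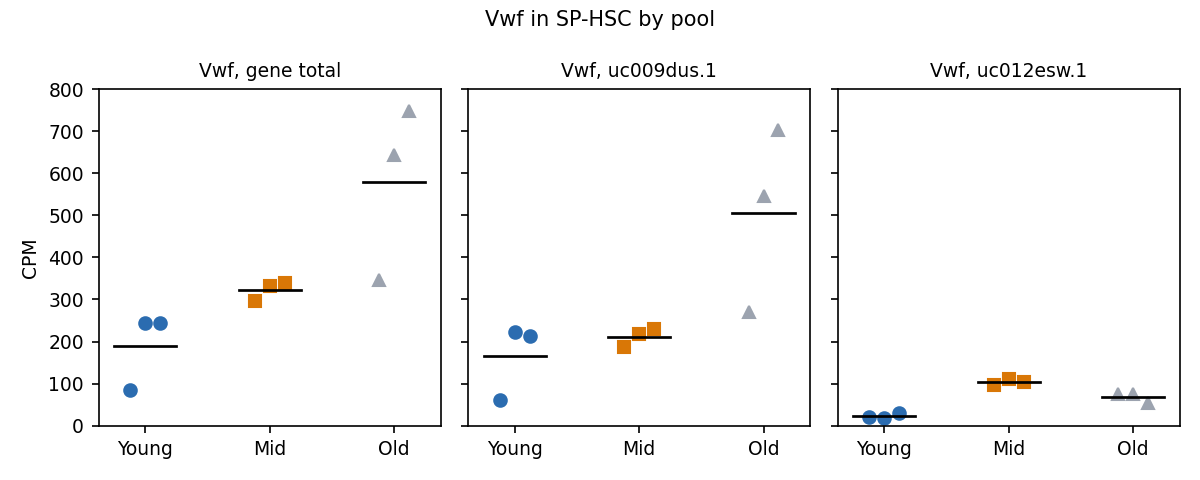
CPM (vertical axis) of Vwf as a gene and of its transcripts uc009dus.1 and uc012esw.1, one point for each Young, Mid and Old pool and a line at each group's mean. The transcript uc012esw.1 lies between 18.2 and 30.9 CPM in Young and between 95.7 and 111 CPM in Mid, while Young pool 1 is low in uc009dus.1 and in the gene total.

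Old pools, which share the Young controls, are given beside these values without a test. Muc1 stood at 45.3, 54.5 and 57.8 CPM in Old, Tdrd9 at 14.8, 21.2 and 15.4 CPM, Selp at 198, 211 and 223 CPM and Osmr at 11.7, 12.0 and 10.5 CPM, each further from Young than Mid was. Mt1 stood at 28.3, 30.6 and 27.1 CPM, within the range of the Mid pools. Nrgn, by contrast, was at 115, 150 and 149 CPM in Old, below every Mid pool. Among the falls, Tnfrsf13c stood at 8.90, 6.25 and 7.82 CPM and Umps at 2.43, 2.3 and 2.87 CPM in Old, below Mid, whereas Nid1 was at 2.07, 2.32 and 2.95 CPM, above Mid. The Vwf transcript uc012esw.1 was at 74.8, 75.3 and 54.3 CPM in Old, below its Mid pools, while uc009dus.1 was at 269, 545 and 702 CPM, above them.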

How the data were processed

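RNA-seq of SP-HSC pools was analysed for Young, Mid and Old mice, with 3 pools in each group. Per the labels and the submitters' processing notes, RSEM 1.1.21, Bowtie 0.12.7, BWA 0.5.8 and SAMtools were used with the build mm9. The study's methods give BWA for the MeDIP reads, and the roles of the others are not given in the sources used here. The authors deposited expected counts per gene cluster and transcript, not normalized, and beside them the fraction of all transcripts, as estimated by the authors. Expected counts were summed over the runs of a pool and rounded. Reads that fit several genes were split by the authors' program. Paralogs and overlapping genes are uncertain for this reason.

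The 9 pools entered 1 fit without covariates. Genes were filtered with filterByExpr and normalized by TMM, and Mid was compared with Young in edgeR 4.0.16 (R 4.3.3; glmQLFTest), where an adjusted p (Benjamini-Hochberg) under 0.05 counted as called. The script was tested on simulated data first. P-values weigh the difference between Mid and Young against the spread between pools of the same age, estimated over all 9 pools. The spread between single mice was not measured. The SE is the size of the log2 fold change over the square root of the test's F statistic, so it is not independent of the p-value. An exact permutation test of 3 against 3 cannot go below 0.1. Total counts per pool were 74819481 to 200461974.

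Names were inferred because the files hold none. The ratio of expected count to fraction gave transcript lengths, and lengths and cluster order were matched to GENCODE vM1 on NCBIM37. Names within 2 bp and a posterior of at least 0.9 were taken as exact and those up to 40 bp off as tentative. With 10% of clusters given shifted lengths, exact names were still given at 2.68% and tentative names at 20.7% of the usual rate. Of the names so given, 43.6% of the exact and 89% of the tentative ones were the gene matched with the true lengths. The rates are thus not rates of wrong names. Of the genes tested, 9207 (56.6%) were named. Promoter sequences are from RefSeq (GRCm38.p6), and both of the 2 genes looked up were matched.

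The text names the 15 largest rises and falls with an average log2 CPM of at least 1, and called members of the gene lists. It also names up to 2 abundant members of lists without a call, and genes of the study. Outside this rule, Ctgf, Postn, Kcnj8 and Pparg were picked after their values were seen. Some other uncalled list members, such as Wwtr1, Gfi1, Flt3, Il7r, Cdh5 and Sparc, and some genes with a called transcript are given too. Members and lists were chosen with earlier results of these data known. Alternatives were other normalizations, filters, tests, run and block choices, the leaving out of each pool, and stricter name rules. The labels give replicate numbers, and deviations of same-numbered Young and Mid pools correlated at -0.148, -0.221 and 0.052. Those of pools with different numbers correlated at -0.107 to 0.210. With 3 pools per group these values depend on each other and cannot decide whether the numbers pair the pools. No pairing was assumed in the main fit. MeDIP samples were not analysed here.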

Additional observations from a re-analysis of the deposited data

How the results depend on the processing

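The number of called genes, 143 with all 9 pools and edgeR, ranged from 43 to 508 when 1 pool was left out, highest without Young pool 1 and lowest without Mid pool 1. It was 34 with Young and Mid pools alone, 517 with a covariate marking the pools of 1 run, and 912 with the DESeq2 test. Of the 517 and 912 genes, 276 and 454 were higher in Mid, against 98 of 143. That covariate marked only Young pool 1 and Old pool 1, and the labels name no batch. The other normalization (138), no filter (134), a CPM of at least 1 in 3 pools (143) and the later run only (158) stayed within 1.5 times. Transcript calls, 31 in the main fit, ranged from 0 to 85 when 1 pool was left out and were 0 with Young and Mid pools alone in edgeR, where 2734 had an unadjusted p under 0.05. The causes were not tested. Of the 36 called genes picked by the naming rule, 8 kept their call in all 14 alternatives.

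With the replicate number as a block, 79 genes were called, 74 of them among the 143, and 0 transcripts in edgeR, where 3059 had an unadjusted p under 0.05. This fit assumes that same-numbered pools were paired. Such pools did not deviate together, but with 3 pools per group that cannot decide whether they were. Under the block the log2 fold change was 0.01 for Cyfip2 and 0.01 for Dnmt1, neither called.

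Signs turned in genes that were not called. With the covariate for pools of 1 run, log2 fold changes were -0.05 for Dnmt3a, -0.01 for Eng, -0.09 for Tet3 and -0.03 for Hsp90ab1. They were 0.07 for S100a8, 0.13 for Car2, 0.09 for Abcg2, 0.17 for Btg1 and 0.13 for B2m. Skil was at 0.01 with the CPM filter and 0.00 with the later run only. When 1 pool was left out the ranges were -0.02 to 0.49 for Jund, -0.13 to 0.54 for Dnmt3a, -0.12 to 0.35 for Eng, -0.27 to 0.72 for Tet3, -0.07 to 0.08 for Hsp90ab1, -0.03 to 0.04 for Skil, -0.28 to 0.13 for Cyfip2, -0.34 to 0.24 for S100a8, -0.29 to 0.21 for Car2, -0.31 to 0.21 for Abcg2, -0.31 to 0.15 for Btg1, -0.53 to 0.19 for Dnmt1, -0.56 to 0.17 for B2m, -0.50 to 0.00 for Rbbp4, -0.67 to 0.06 for Notch1 and -0.53 to 0.01 for Lmo2.

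Names numbered 9356 under the rule used, 7086 with lengths within 2 bp only, 5035 with equal length only and 7281 with a posterior of at least 0.99. Of the 86 called genes with a name, 18, 37 and 20 lost it under these 3 rules, and so did 12, 19 and 13 of the 36, Sdpr among them with equal length only and with the posterior of 0.99. Depth limits the genes of low abundance, and the estimated counts in Young pool 1 were 7 for Mab21l2 and 5 for Greb1.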
